A study of Mus musculus with 6 samples.

Results

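The genes described here are 10 nuclear receptors known for their part in fat and oxidative metabolism, the peroxisome proliferator-activated receptors (*Pparg*, *Ppara*, *Ppard*), 2 retinoid X receptors (*Rxra*, *Rxrg*), the estrogen-related receptors (*Esrra*, *Esrrb*, *Esrrg*) and the thyroid hormone receptors (*Thra*, *Thrb*). They were chosen by symbol, and all 16 array probes whose RefSeq accession maps to them were taken, out of 33767 probes matched to 23462 genes on the array. BAT was taken from 3 wild-type (WT) and 3 miR-22 knockout (KO) male mice, 8 weeks old, and RNA of each mouse was hybridized to 1 Agilent array with 1 dye. The knockout is global, so every tissue of these mice lacks miR-22 and not only the brown adipocytes. The comparison answers how the messages of these receptors differ in BAT without miR-22. The series' design text speaks of flow separation, whereas the study's methods speak of BAT, and whether cells were sorted is not settled by the sources used here. In either case the RNA of many cells was pooled, and fewer cells of a type and less RNA per cell cannot be told apart.

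PPARs and thyroid hormone receptors are transcription factors switched by ligands, fatty acids and their derivatives for the former and T3 for the latter, and both bind DNA mainly as pairs with a retinoid X receptor. The estrogen-related receptors have no known natural steroid ligand, bind an extended form of the same DNA motif, and depend on the coactivators PGC-1α and PGC-1β for their activity. In brown fat PPARγ sets up the adipocyte program, PPARα and the estrogen-related receptors drive fatty acid oxidation and mitochondrial genes, and thyroid hormone receptors carry the response to the T3 that Dio2 makes within the cell.

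The agent removed in the KO mice is shown here because every comparison rests on its loss. Both mature strands are those of RefSeq on GRCm38.p6, read from the plus strand of chromosome 11, and capitals mark the seed (bases 2 to 8), the stretch through which a miRNA pairs with its targets. The 3p strand lies at chr11:75463772-75463793 and the 5p strand at chr11:75463734-75463755.
mmu-miR-22-3p: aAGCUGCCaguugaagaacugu
mmu-miR-22-5p: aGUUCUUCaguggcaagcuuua
No probe of the array was matched to a mature strand. The probe of the host transcript *Mir22hg* read 1.20, 1.69 and 1.22 on the log2 scale in WT mice and 2.02, 2.11 and 2.23 in KO mice, so it was present in every KO mouse. It was higher in KO by 0.75 (SE 0.19, unadjusted p = 0.00486, adjusted p = 0.136 with limma and Benjamini-Hochberg), and whether it lies in the deleted stretch is not stated in the sources used here.

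Values are scanner signals divided by the 75th percentile of their array and taken as log2, so that 0 is the level of that percentile, and in each list of values the WT mice come first, in the order of their numbers. Levels of different probes are not compared, since probes differ in how brightly they bind. A spot is called marked where the scanner software flagged it as not uniform or as an outlier, and marked spots were left out of the tests. Between 55.9 and 66.5% of spots were well above background on an array, and between 4.87 and 17.1% were marked, the most on the arrays of WT mouse 3 and KO mouse 1. All 12 brown adipocyte markers, *Ucp1* among them, were well above background on all 6 arrays. The mean of 22 skeletal muscle markers ranged from -4.09 in WT mouse 3 to 3.23 in KO mouse 2 (exact permutation test, two-sided, p = 0.7). The samples thus differed in these markers by more than any receptor differed, and where this spread came from was not tested. The mean of 9 white adipocyte markers was higher in all 3 KO mice (-1.91, -1.53 and -1.58 against -2.10, -2.11 and -2.11). An exact permutation test gave p = 0.1, the smallest value that it can give for 3 against 3 mice. Of the 9 markers, 8 were well above background on all 6 arrays. They did not all move alike, and *Fbn1* was lower in KO mice 1 and 3 than in every WT mouse. The mean of 9 lymphocyte markers was also higher in all 3 KO mice (-4.38, -4.69 and -4.66 against -5.15, -4.73 and -4.84), with the same p. Of these 9, 5 were well above background on all 6 arrays. The part of these markers in the results below was not tested, except by a fit with muscle as a covariate. WT mice 1 and 2 lay on the first row of the slide, and WT mouse 3 and all KO arrays on the other row. Where the spot of WT mouse 3 was marked and left out, genotype and slide row therefore cannot be told apart.

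Across the 10 receptors, 1 message was higher and 2 were lower in KO mice at an unadjusted p under 0.05. *Esrrb* rose 2.07-fold, while *Esrra* and *Rxrg* fell by 0.53 and 0.52 on the log2 scale, that is, they were 1.44-fold and 1.43-fold higher in WT. None of the 10 passed after adjustment over all probes tested with limma, where the lowest adjusted p, that of *Esrrb*, was 0.168. Of the 16 probes, 15 could be tested, and 12 of these were below 0, against 48.3% of all probes tested. Among the 12, the dim *Thrb* probe passed the filter through the WT arrays alone, and without it 11 of 14 were below 0. Over all 31238 probes tested, 6.74% were lower and 9.7% higher at the same unadjusted threshold, and 0.109% passed after adjustment. The shares of the receptors were thus 2 of 15 lower and 1 of 15 higher beside those background shares. All 3 KO values lay below all WT values in 5 of the 15 probes and above them in 1, against 13.8% of all probes in the former and 13.8% in the latter direction. The median difference of the receptor probes was -0.30, and that of all probes was 0.02, with quartiles at -0.23 and 0.29.

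**Figure D1:**
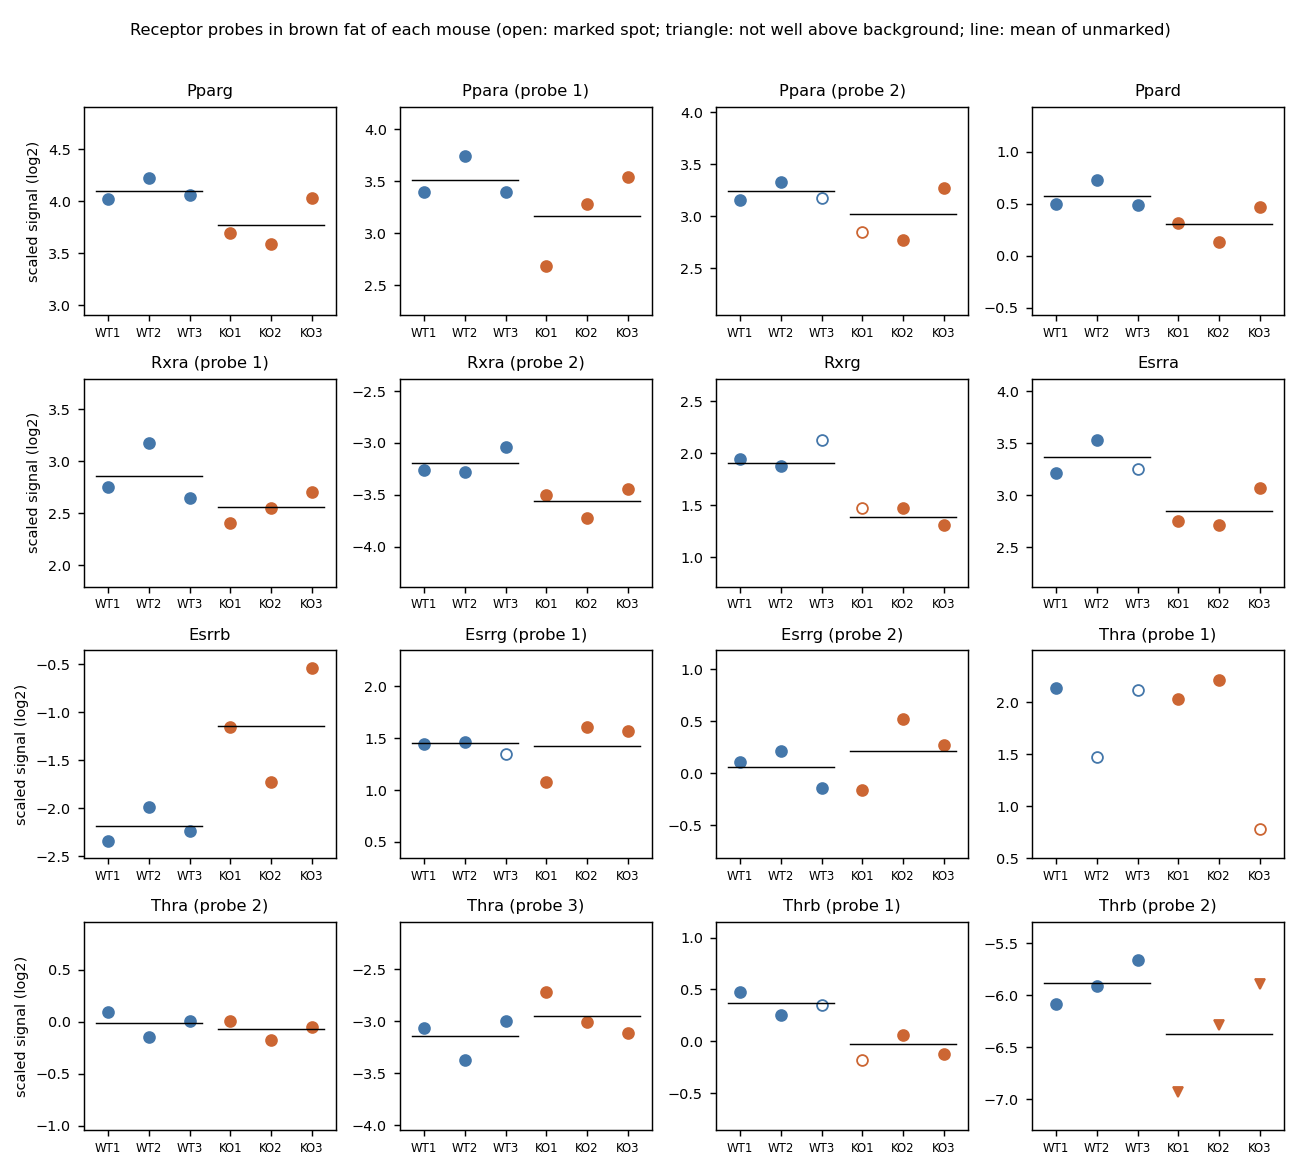
Scaled log2 signal (y axis, own scale in each panel) of each of the 16 receptor probes in the 3 WT mice (blue) and the 3 KO mice (orange), with open symbols for marked spots, triangles for spots not well above background, and a line at the mean of the unmarked values. Esrrb lies higher, and Rxrg and Esrra lower, in all KO mice, while Pparg and Ppara of KO mouse 3 lie within or near the WT values.

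Over all probes, the difference between KO and WT mice varied with how bright a probe was. How far this accounts for the shift of the receptor probes was not tested. Probes of all genes were sorted by their mean level into 10 classes of equal size, and the median difference between KO and WT mice fell from 0.12 in the dimmest class to -0.25 in the brightest class under this scaling. Of the 15 receptor probes, 7 lay in the 2 brightest classes. Relative to the median of probes of like level, 10 of the 15 receptor probes were below it, or 9 of 14 without the dim *Thrb* probe. With quantile normalization, which gives every array the same distribution of values, the medians of the classes lay between -0.14, in the dimmest, and -0.02, and that of the brightest was -0.04. The median of the receptor probes was then -0.12, and 10 of the 15 (9 of 14) were again below the median of their class. For the brightest receptors, the differences below are therefore given beside -0.25.

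**Figure D2:**
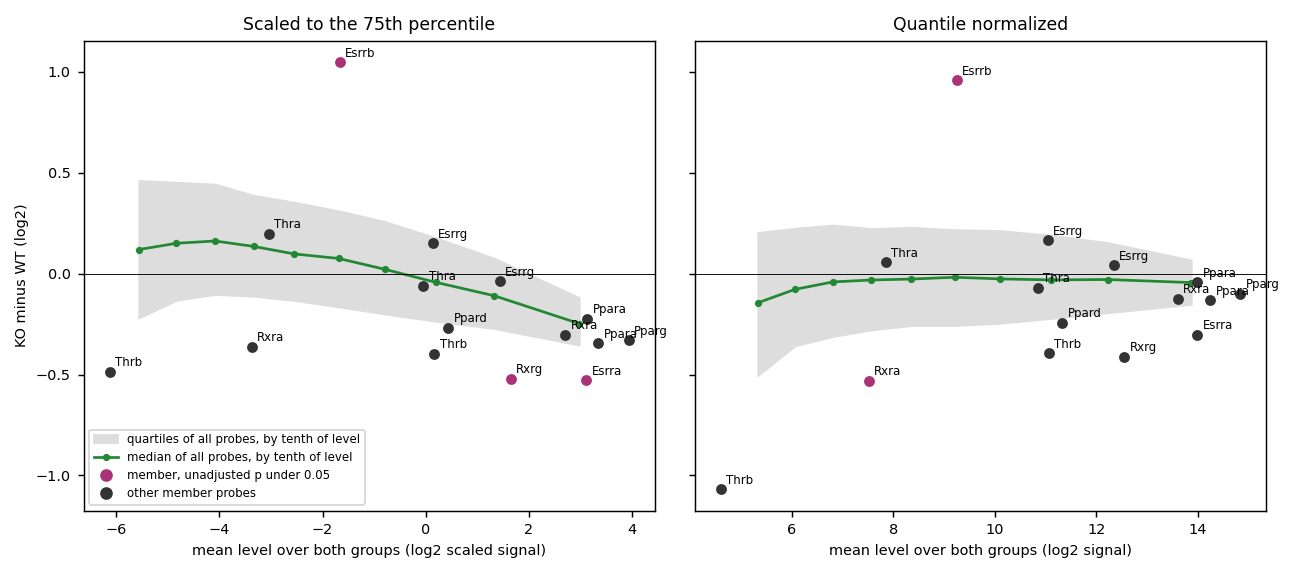
Difference between KO and WT mice (y axis, log2) against the mean level of the probe (x axis, log2) for the receptor probes (points) and for all 31238 tested probes by class of level (green line, median; grey, quartiles), with the 75th percentile scaling on the left and quantile normalization on the right. On the left the green line falls to -0.25 for the brightest probes, where Pparg, Ppara and one Rxra probe lie close to it, while Esrrb stands far above and Esrra and Rxrg below the line in both panels.

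The windows of 250 bases upstream of the annotated starts are shown for the 3 receptors that passed the unadjusted threshold, because nuclear receptors bind at the hexamer AGGTCA and control each other's genes. RefSeq on GRCm38.p6 gave 18 such windows for 9 of the 10 genes, all except *Thra*. Capitals mark AGGTCA on either strand. The *Rxrg* window (chr1:167618015-167618264, plus strand) belongs to one of its 2 starts and is printed because it holds a match, which the window of the other start does not. The *Esrra* window (chr19:6921809-6922058, minus strand) belongs to its only start and the *Esrrb* window (chr12:86360867-86361116, plus strand) to one of 2 starts, of which neither window holds a match.
Rxrg: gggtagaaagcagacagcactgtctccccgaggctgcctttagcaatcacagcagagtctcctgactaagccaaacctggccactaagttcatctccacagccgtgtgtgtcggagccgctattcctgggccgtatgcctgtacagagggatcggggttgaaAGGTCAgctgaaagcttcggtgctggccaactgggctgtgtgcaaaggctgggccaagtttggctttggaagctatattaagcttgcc
Esrra: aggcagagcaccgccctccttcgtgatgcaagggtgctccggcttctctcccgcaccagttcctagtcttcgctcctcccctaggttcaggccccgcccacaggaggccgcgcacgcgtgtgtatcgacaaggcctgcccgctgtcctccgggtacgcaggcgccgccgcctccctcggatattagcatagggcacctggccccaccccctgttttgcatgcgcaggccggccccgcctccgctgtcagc
Esrrb: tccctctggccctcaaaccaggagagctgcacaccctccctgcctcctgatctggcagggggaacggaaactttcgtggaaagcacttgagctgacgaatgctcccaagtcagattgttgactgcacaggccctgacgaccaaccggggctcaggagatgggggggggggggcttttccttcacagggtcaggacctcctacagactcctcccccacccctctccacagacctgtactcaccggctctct
AGGTCA occurred in 5 of the 18 windows, in 2 of *Pparg* and 1 each of *Rxra*, *Rxrg* and *Thrb*, and in 14% of all 32851 windows of this length. The extended motif TCAAGGTCA, which estrogen-related receptors prefer, contains AGGTCA and was in none of the 18 windows and in 0.387% of all. Of the receptors whose values passed the threshold, *Rxrg* thus has the hexamer in the printed window, and *Esrra* and *Esrrb* do not have these letters in theirs. Such a match is a description of the letters and not of binding.

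*Pparg*, the receptor that directs adipocyte formation and lipid storage, read 4.02, 4.22 and 4.06 in WT and 3.69, 3.59 and 4.03 in KO mice on its only probe (A_51_P106799). KO mice 1 and 2 were below all WT mice, and KO mouse 3 lay between WT mice 1 and 3. The difference was -0.33 (95% confidence interval -0.74 to 0.08, unadjusted p = 0.0985, adjusted p = 0.389), beside -0.25 for all probes of its class, and -0.10 with quantile normalization. Without KO mouse 3 it was -0.46 with an unadjusted p of 0.0361 (adjusted p = 0.300), and the adjusted p ranged from 0.300 to 0.789 over the alternatives run.

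*Ppara*, which switches on fatty acid oxidation, gave overlapping groups on both of its probes. The brighter probe (A_55_P2071596) read 3.40, 3.75 and 3.40 in WT and 2.68, 3.28 and 3.54 in KO mice. KO mouse 1 was the lowest and KO mouse 3 was within the WT values, and the difference was -0.34 (95% confidence interval -0.93 to 0.24, adjusted p = 0.520), beside -0.25 for all probes of its class. It was -0.13 with quantile normalization, -0.10 without KO mouse 1 and -0.53 without KO mouse 3. The other probe (A_55_P2055854) differed by -0.22 (adjusted p = 0.693), with 1 marked spot in each group. *Ppard*, the receptor of that family found in most tissues, read 0.50, 0.73 and 0.49 in WT and 0.32, 0.13 and 0.47 in KO mice (A_66_P124715). Its KO values were all below the WT values, by a narrow gap between KO mouse 3 and WT mouse 3, and the difference was -0.27 (95% confidence interval -0.66 to 0.12, adjusted p = 0.455).

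Among the retinoid X receptors, the shared partners of PPARs and thyroid hormone receptors, *Rxrg* passed the unadjusted threshold and *Rxra* did not. Its probe (A_51_P513311) read 1.95, 1.87 and 2.12 in WT and 1.47, 1.47 and 1.31 in KO mice, with the spots of WT mouse 3 and KO mouse 1 marked. Every KO mouse was below every WT mouse, and the groups were wider apart than the spread within either. Leaving out the marked spots leaves WT mice 1 and 2, on the first row of the slide, against KO mice 2 and 3 on the other row. Genotype and slide row thus cannot be told apart in the test without those spots. The difference was -0.52 (SE 0.20, 95% confidence interval -1.04 to -0.00092, unadjusted p = 0.0497, adjusted p = 0.304) from the 4 unmarked values, beside -0.11 for all probes of its class. With the marked spots kept it was -0.56 (unadjusted p = 0.00647, adjusted p = 0.144). This call rested on the choice of setting. It passed the unadjusted threshold in 12 of 17 alternatives, and the adjusted p ranged from 0.144 to 0.547. It did not pass with quantile normalization (-0.41, unadjusted p = 0.0967). Nor did it pass without WT mouse 3 (unadjusted p = 0.0573) or without KO mouse 1 (unadjusted p = 0.0541), where the difference stayed at -0.52 because their marked spots were left out already. Without any of the other 4 mice too few unmarked values were left for a test. On the second row of the slide, where only WT mouse 3 stands for the WT group, KO mice were lower by 0.71 with the marked spots kept (block on slide row, unadjusted p = 0.0183, adjusted p = 0.547), while without these spots the fit with a row block could not be made.

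*Rxra*, the retinoid X receptor found in most tissues, was measured by a bright and a dim probe. The bright probe (A_55_P2931478) read 2.76, 3.18 and 2.64 in WT and 2.41, 2.55 and 2.71 in KO mice. The groups overlapped, since KO mouse 3 was above WT mouse 3, and the difference of -0.30 (95% confidence interval -0.76 to 0.15, adjusted p = 0.468) was close to the -0.25 of its class. It was -0.12 with quantile normalization, -0.14 without WT mouse 2 and -0.09 with a block on slide row. The dim probe (A_51_P307370) read -3.26, -3.28 and -3.04 in WT and -3.50, -3.72 and -3.44 in KO mice. Here all KO values were below the WT values, and the difference was -0.36 (unadjusted p = 0.0583, adjusted p = 0.321) where probes of like level had a median of 0.14. With quantile normalization it was -0.53 (unadjusted p = 0.0135, adjusted p = 0.186), and with the authors' values -0.53 (unadjusted p = 0.0129, adjusted p = 0.155). The methods' t-test gave this probe an unadjusted p of 0.0338. It passed the unadjusted threshold in 5 of 21 alternatives, and its adjusted p ranged from 0.155 to 0.657. *Rxrb*, the remaining retinoid X receptor and no member of the 10, read 2.41, 2.73 and 2.46 in WT and 1.97, 1.75 and 2.11 in KO mice on its brightest probe (A_55_P2008609). That probe fell by 0.59 (SE 0.16, unadjusted p = 0.0083, adjusted p = 0.140, fit over genes), without overlap of the groups, while 2 dim probes of the gene differed by -0.32 and -0.17 with unadjusted p-values of 0.307 and 0.579.

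The estrogen-related receptors moved in different directions. *Esrra*, which with PGC-1α drives the genes of the respiratory chain, read 3.22, 3.53 and 3.25 in WT and 2.75, 2.71 and 3.07 in KO mice (A_55_P1954306), with the spot of WT mouse 3 marked. All KO mice were below all WT mice, with KO mouse 3 nearest to them. Leaving out the marked spot leaves WT mice 1 and 2, on the first row of the slide, against KO mice on the other row. Genotype and slide row thus cannot be told apart in the test without that spot. The difference was -0.53 (SE 0.21, 95% confidence interval -1.04 to -0.02, unadjusted p = 0.0448, adjusted p = 0.292), beside -0.25 for all probes of its class. With quantile normalization it was -0.30 (unadjusted p = 0.0859, adjusted p = 0.384) and with the authors' processed values -0.28 (unadjusted p = 0.0523, adjusted p = 0.278), both under the size above by more than 1.5 times. It passed the unadjusted threshold in 10 of 19 alternatives, with adjusted p-values from 0.201 to 0.719. Leaving out KO mouse 1 gave -0.48 (unadjusted p = 0.107) and leaving out KO mouse 2 gave -0.46 (unadjusted p = 0.110). With marked spots kept, a block on slide row gave -0.41 (unadjusted p = 0.179).

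*Esrrb*, better known from embryonic stem cells and the inner ear than from fat, was the receptor with the largest difference and the only one that rose. Its probe (A_55_P1954302) read -2.34, -1.98 and -2.24 in WT and -1.16, -1.72 and -0.54 in KO mice, with no marked spot and all 6 well above background. Every KO mouse was above every WT mouse, and the KO mice were spread more widely (SD 0.59) than the WT mice (SD 0.18). The difference was 1.05 (SE 0.30, 95% confidence interval 0.34 to 1.76, unadjusted p = 0.00976, adjusted p = 0.168), beside 0.08 for all probes of its class. In the order of unadjusted p-values over all 31238 probes it stood at 1818. The unadjusted p was under 0.05 in 21 of 22 alternatives, with differences from 0.75 without KO mouse 3 to 1.34 without KO mouse 2 and adjusted p-values from 0.096 to 0.635. The exception was a block on slide row, with an unadjusted p of 0.0522 (adjusted p = 0.611), although the difference from WT mouse 3 on the same row was as large, at 1.102. Over the 6 arrays, the genes whose values followed *Esrrb* most closely were *Bricd5* (Pearson's r = 0.996), *Shroom3* (0.995), *Gm17116* (0.992), *Zfp281* (0.990) and *Speer3* (0.989), out of 9566 genes with no marked spot. The 6 points are the same arrays for every gene and share their scaling, and the likeness is a description only.

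*Esrrg*, an estrogen-related receptor of oxidative tissues such as heart, muscle and brown fat, showed no difference beyond the spread between mice. One probe (A_55_P2799081) read 1.44, 1.47 and 1.35 in WT and 1.07, 1.61 and 1.57 in KO mice, with KO mouse 1 the lowest and the other two KO mice the highest of all. The difference was -0.04 (95% confidence interval -0.59 to 0.51, adjusted p = 0.947). The other probe (A_55_P2006499) differed by 0.15 (95% confidence interval -0.36 to 0.66, adjusted p = 0.750). The interval of the former probe includes a fall of the size seen for *Esrra*, and that of the latter does not, though it includes a rise of that size.

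**Figure D3:**
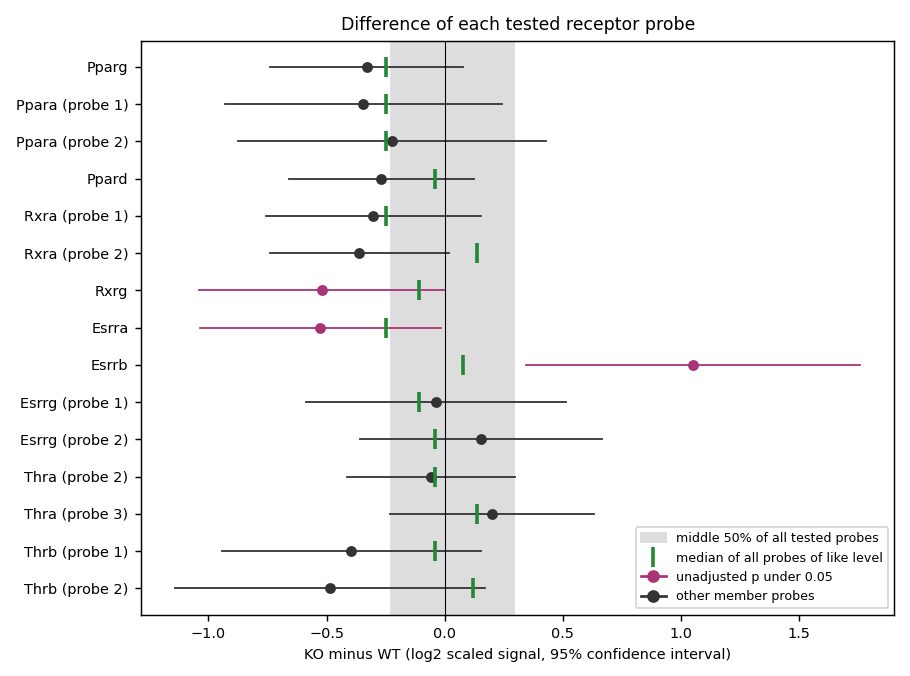
Difference between KO and WT mice (x axis, log2 scaled signal) with its 95% confidence interval for the 15 tested receptor probes, numbered by level where a gene has several. Green ticks mark the median of all probes of like level and the grey band the middle of all 31238 probes; Esrrb, at 1.05, is the only interval above 0, and those of Rxrg and Esrra end just below 0.

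Thyroid hormone receptors showed lower *Thrb* values in KO mice on its brighter probe and no difference of *Thra* beyond the spread between mice. *Thrb*, the form that carries the T3 induction of *Ucp1*, read 0.48, 0.26 and 0.35 in WT and -0.18, 0.06 and -0.12 in KO mice (A_52_P532559), with WT mouse 3 and KO mouse 1 marked. The groups did not overlap. The difference was -0.40 (95% confidence interval -0.94 to 0.15, unadjusted p = 0.123, adjusted p = 0.422) from the unmarked values, and -0.44 (unadjusted p = 0.0209, adjusted p = 0.210) with the marked spots kept. Over the alternatives its adjusted p ranged from 0.198 to 0.688, and the authors' processed table does not list this probe. The other probe (A_51_P388835) passed the filter only through the WT mice, since its KO spots were not well above background on any array. It read -6.08, -5.91 and -5.66 in WT and -6.93, -6.29 and -5.90 in KO mice, and no fold is given, because the mean of the KO values, each raised to the lowest signal well above background on its array, was above the WT mean.

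*Thra*, the more abundant form in most tissues, had 2 tested probes. One (A_52_P666930) read 0.09, -0.15 and 0.00 in WT and 0.00, -0.18 and -0.05 in KO mice, and its groups overlapped almost fully. The difference was -0.06 (95% confidence interval -0.42 to 0.30, adjusted p = 0.863). The other (A_66_P102879) differed by 0.20 (95% confidence interval -0.23 to 0.63, adjusted p = 0.614). The third probe (A_51_P475995) was not tested, since only 1 WT value was unmarked. With the marked spots it read 2.14, 1.47 and 2.11 in WT and 2.03, 2.22 and 0.78 in KO mice, in which the single low value belonged to a marked spot of KO mouse 3.

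**Figure D4:**
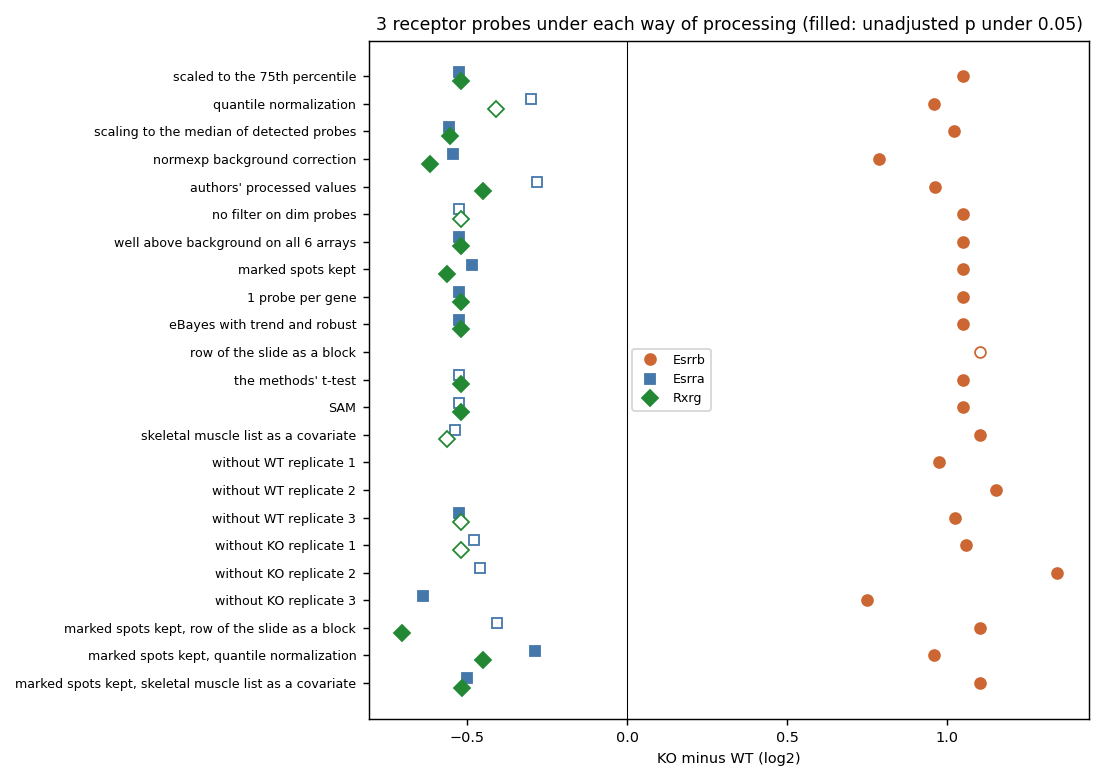
Difference between KO and WT mice (x axis, log2) of Esrrb, Esrra and Rxrg under each way of processing (y axis), filled where the unadjusted p was under 0.05, with no symbol where a probe could not be fitted. Esrrb lies between 0.75 and 1.34 throughout, whereas Esrra lies between -0.64 and -0.28 and Rxrg between -0.71 and -0.41, and both lose the threshold in some settings.

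Other genes of these pathways were read from 7 lists, with the brightest testable probe for each gene. The software marked bright spots far more often than dim ones, so that 45.3% of detected probes in the brightest class could not be tested, against 0% in the dimmest. The lists of lipid and mitochondrial genes are bright, and counts are given both without and with the marked spots. Without them, 8.82% of 14711 genes were lower, 10% were higher and 0.184% passed after adjustment; with them, 11.1% of 16110 genes were lower and 9.47% higher. With marked spots kept and quantile normalization, the shares were 10.6% lower and 8% higher. No gene of any list passed after adjustment in these fits.

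The list of other nuclear receptors was not limited to partners of the 10. Its count of genes lower in KO mice was 6 of 14, with none higher and a median of -0.37 beside -0.03 for all genes. With the marked spots kept it was 6 of 15 (median -0.38), and with quantile normalization on top of that 5 of 15 (median -0.35). *Nr1d1*, the heme-binding repressor of the circadian clock, read -0.63, -0.76 and -1.02 in WT and -1.77, -1.52 and -1.24 in KO mice. It fell by 0.71 (SE 0.19, adjusted p = 0.133), with no overlap. *Nr3c1*, the glucocorticoid receptor, fell by 0.54 (adjusted p = 0.168), and *Nr2f6* and *Nr1h2* fell by 0.55 and 0.38. With marked spots kept and quantile normalization *Nr3c1*, *Nr2f6* and *Nr1h2* differed by -0.35, -0.36 and -0.26, the last with an unadjusted p of 0.0576. *Nr4a1* fell by 1.33 (unadjusted p = 0.00133, adjusted p = 0.0803) on 4 unmarked spots, and with the marked spots kept it differed by -0.62 with an unadjusted p of 0.187. With a block on slide row, the count of lower genes in this list was 0 and that of higher genes was 2, of 13 tested. In that fit over all probes, 2.06% were lower and 6.17% higher.

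The coactivators and corepressors held 0 of 21 lower and 0 higher, with a median of -0.08, and 2 of 27 lower (median -0.16) with the marked spots kept. *Ppargc1a*, which encodes PGC-1α, was not tested without its marked spots. With them it read 3.76, 3.39 and 3.52 in WT and 2.95, 2.87 and 3.10 in KO mice, 4 of them marked. Its groups did not overlap, and it fell by 0.59 (SE 0.15, unadjusted p = 0.00596, adjusted p = 0.118), or differed by -0.38 (unadjusted p = 0.0603, adjusted p = 0.292) with quantile normalization. The other probe of *Ppargc1a* read 2.76, 3.498 and 3.052 in WT and 2.378, 2.172 and 2.716 in KO mice, also without overlap. On that probe the spots of WT mice 1 and 3 and KO mice 1 and 2 were marked. *Perm1*, a muscle regulator induced by PGC-1, was the other lower gene, at -0.36. With quantile normalization 0 of 27 were lower (median -0.04), and *Perm1* differed by -0.22 with an unadjusted p of 0.129. *Ppargc1b*, which encodes PGC-1β, read 2.83, 3.15 and 2.83 in WT and 0.68, 2.42 and 2.86 in KO mice, 5 of them marked. KO mouse 1, with a marked spot, was far below the rest and KO mouse 3 within the WT values. The difference was -0.95 with an unadjusted p of 0.116. The other probe of *Ppargc1b* read 1.683, 1.785 and 1.96 in WT and 1.274, 1.818 and 1.715 in KO mice, and its groups overlapped. On that probe the spots of WT mice 2 and 3 and KO mouse 2 were marked.

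Ligand supply, which covers deiodinases, hormone carriers and retinoid enzymes, held 0 of 13 lower and 0 higher without the marked spots, and 1 of 18 lower with them (*Rbp4*, the retinol carrier of plasma, at -0.47). With quantile normalization 0 of 18 were lower, and *Rbp4* differed by -0.22, past no threshold. *Dio2*, which makes T3 from T4 in brown adipocytes, read 3.13, 3.58 and 3.28 in WT and 3.05, 1.83 and 3.07 in KO mice, with 4 marked spots. All KO mice were below the WT mice, but only KO mouse 2 by far, and the difference was -0.68 (unadjusted p = 0.0918, adjusted p = 0.312).

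Targets of PPARα and PPARδ, most of them enzymes of fatty acid oxidation, moved both ways, with 3 of 21 lower, 3 higher and a median of -0.11. *Cpt1b* and *Cpt2*, which carry fatty acids into mitochondria, fell by 0.58 (adjusted p = 0.222) and 0.55 (adjusted p = 0.203), and *Hadha*, a subunit of the trifunctional protein, fell by 0.56 (adjusted p = 0.234). With marked spots kept and quantile normalization these 3 differed by -0.36, -0.25 and -0.31, each with an unadjusted p under 0.05. *Ucp3*, a mitochondrial carrier found mostly in muscle and brown fat, read 0.17, 0.33 and 0.79 in WT and 1.06, 1.28 and 1.61 in KO mice, with WT mouse 3 and KO mouse 1 marked. It rose by 1.19 (SE 0.21, adjusted p = 0.0938) without and by 0.89 (adjusted p = 0.112) with the marked spots. *Cyp4b1*, a fatty acid hydroxylase, read 1.49, 1.69 and 1.41 in WT and 2.0, 2.26 and 2.68 in KO mice and rose by 0.78 (SE 0.20, adjusted p = 0.128). With the marked spots the list held 5 of 32 lower and 2 higher (median -0.22), and with quantile normalization 3 lower and 3 higher (median 0.02).

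Targets of PPARγ held 1 of 15 lower (*Ebf1*, an adipocyte transcription factor, at -0.52) and 1 higher (*Lpin1*, a phosphatidate phosphatase, at 0.59 on a dim probe and 0.05 on its brightest probe). With the marked spots kept, 3 of 29 were lower (median -0.24), of which *Klf15* fell by 0.66 (SE 0.14, adjusted p = 0.0954) and *Scd1*, the stearoyl-CoA desaturase, by 0.59. With quantile normalization *Scd1* differed by -0.28 (unadjusted p = 0.0887), and 2 genes were lower and 1 higher, with a median of 0.01.

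Targets of the estrogen-related receptors could be tested in 13 of 42 genes without the marked spots. Of these, *Sirt3*, a mitochondrial deacetylase, and *Cpt1b* fell, by 0.56 and 0.58. With the marked spots, 8 of 41 were lower and 0 higher, 39 were below 0 and the median was -0.34. The brightest class of all probes had a median of -0.26 and an upper quartile of -0.14 in that setting. *Cyc1* and *Cycs*, which encode cytochrome c1 and cytochrome c, fell by 0.53 (adjusted p = 0.157) and 0.49 (adjusted p = 0.187). With quantile normalization they differed by -0.23 (unadjusted p = 0.464) and -0.20 (unadjusted p = 0.0792), and *Sirt3* by -0.26 (unadjusted p = 0.0606). The list then held 2 lower and 1 higher and its median was -0.07. One gene of the list, *Ckmt2*, the mitochondrial creatine kinase of striated muscle, ranged from -8.02 in WT mouse 3 to 3.11 in KO mouse 2, the same mice that had the lowest and highest muscle markers.

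Thyroid hormone targets held 1 of 17 lower and 1 higher without the marked spots and 6 of 26 lower with them (median -0.38), or 4 lower and 1 higher with quantile normalization (median -0.23). *Acaca*, the acetyl-CoA carboxylase of fatty acid synthesis, fell by 0.68 (SE 0.15, adjusted p = 0.114), and by 0.88 (adjusted p = 0.0954) with the marked spot of WT mouse 2. *Me1*, the malic enzyme, fell by 1.01 (adjusted p = 0.138) and *Fasn*, the fatty acid synthase, by 0.67 (adjusted p = 0.122), both with marked spots kept. *Adrb3*, the adrenergic receptor of adipocytes, fell by 0.50 in the same fit (unadjusted p = 0.0261, adjusted p = 0.193). Without the marked spots its unadjusted p was 0.0517, and with quantile normalization it differed by -0.31 (unadjusted p = 0.138), while *Fasn* then differed by -0.36 (unadjusted p = 0.0406). *Acacb* rose by 0.47 on a dim probe, whereas its brightest probe differed by -0.32 with the marked spots kept. *Ucp1*, the shared thermogenic target of PPAR, retinoid and thyroid hormone receptors, read 5.51, 5.85 and 5.53 in WT and 5.10, 4.999 and 5.65 in KO mice, with all 6 spots marked. KO mouse 3 lay within the WT values, and the difference was -0.38 (unadjusted p = 0.116, adjusted p = 0.344), or -0.09 with quantile normalization.

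**Figure D5:**
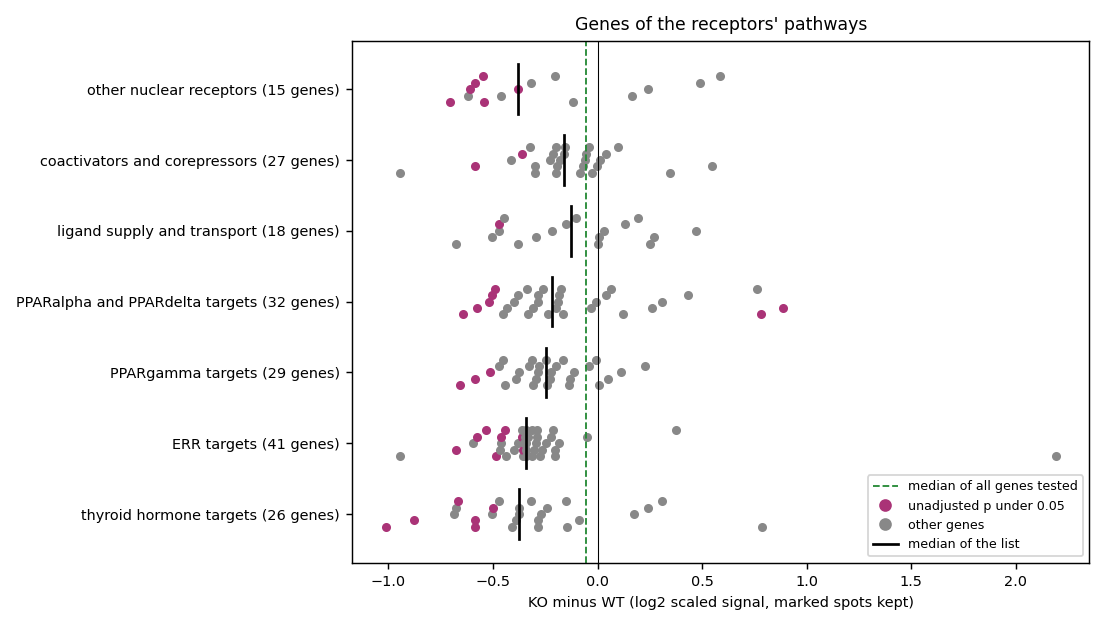
Difference between KO and WT mice (x axis, log2 scaled signal, marked spots kept) for each gene of the 7 pathway lists (points, spread vertically only for legibility), with the median of each list as a black bar and the median of all 16110 genes as a dashed line. The points of the estrogen-related receptor targets lie to the left of 0 for 39 of 41 genes, and the farthest point to the right is Ckmt2 at 2.19, and those of the PPARα and PPARδ targets spread to both sides of 0.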

How the data were processed

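Samples were grouped by their labels. Spot intensity was read by the authors with Agilent Feature Extraction (11.5.1.1 in the file headers, 10.7 in the submitters' processing notes) and deposited after background subtraction, without scaling between arrays. The log2 table that the authors deposited lists 27497 probes. How it was normalized is not given in the sources used here. Each of its columns correlated at a Pearson's r of 0.9998 or more with the signal of that array, against at most 0.983 with another.

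Signals were scaled to the 75th percentile over non-control spots and taken as log2. A probe was tested if at least 3 of 6 spots were well above background and each group had at least 2 unmarked values, which 4413 of 35651 detected probes had not. Probes were matched by RefSeq accession, with symbols of RefSeq on GRCm38.p6. Groups were compared two-sided with limma 3.58.1 (R 4.3.3), and p-values were adjusted with Benjamini-Hochberg over all probes for the 10 receptors and over all genes for the lists. The unadjusted threshold of 0.05 is that of the study's methods. The p-values measure the spread between these 6 samples, and 3 arrays per group limit the precision. No labels pair the mice. Named are the members, 5 related genes and, per list, up to 4 lower and 4 higher genes with the smallest p. A gene named by this rule is not reported here. Applying this to fits with marked spots kept, and naming *Ckmt2*, *Nr2f6*, *Nr1h2* and *Mir22hg*, was decided after their values were seen. Members and lists were chosen with earlier results of these data known. Alternatives covered scaling, background correction (normexp, offset 50), the authors' values, filters, marked spots, 1 probe per gene, moderation, slide row, the methods' t-test, SAM, a muscle covariate and leaving out each array. Combinations with marked spots kept, and the comparison by class of level, were added after seeing the data. The fitting steps were tested on simulated data. Figures were drawn with matplotlib 3.10.9.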

Additional observations from a re-analysis of the deposited data

How the results depend on the processing

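With 3 mice per group, many marked bright spots and 1 slide, no receptor passed after adjustment under any alternative, and the lowest adjusted p of a receptor ranged from 0.096 to 0.611. *Esrrb* stayed higher and kept the unadjusted threshold except under the block on slide row, where the count of higher receptor probes was 0 of 10. Under that block 6.17% of all probes were higher, against 9.7% in the report. The count of lower receptor probes was 2 of 15 in the report, where 6.74% of all probes were lower. It was 1 with quantile normalization (the dim *Rxra* probe, 9.67% of all probes lower) and with SAM (*Rxrg*, 5.19%). It was 0 of 15 without a filter on dim probes (2.99%) and with the muscle covariate (5.93%), and 0 of 10 with the block on slide row (2.06%). With the authors' values (11.2%) and the methods' t-test (7.59%) it was 2, the dim *Rxra* probe and *Rxrg*, without *Esrra*. With the muscle covariate the differences themselves were as large as before, -0.56 for *Rxrg* (unadjusted p = 0.0684) and -0.54 for *Esrra* (unadjusted p = 0.0604), and without the filter they were -0.52 and -0.53. Under the block neither could be fitted without the marked spots. With marked spots kept, the count of lower receptor probes was 1 under the block on slide row (*Rxrg*) and 4 under quantile normalization, of 16 tested. Over all probes, 2.39% and 9.66% were lower in these fits. Leaving out 1 mouse gave 0 to 3 lower and 1 higher: 0 lower without WT mouse 1, WT mouse 2, KO mouse 1 or KO mouse 2, 1 without WT mouse 3 (*Esrra*), and 3 without KO mouse 3 (*Esrra*, *Pparg* and the dim *Thrb* probe, whose KO spots were not well above background, so that its call has no weight). Over all probes, leaving out 1 mouse gave 4.55 to 6.99% lower and 7.93 to 9.44% higher. Without WT mouse 1 or 2, *Esrra* and *Rxrg* had too few unmarked values for a test. *Esrrg* changed its sign around 0. Its brighter probe gave 0.0428 with quantile normalization, 0.0829 with the authors' values, 0.000504 with marked spots kept, 0.0026 with the muscle covariate, and, marked spots kept, 0.0731 under the block on slide row and 0.0845 with quantile normalization, and from -0.13 to 0.14 on leaving out 1 mouse, and the other probe -0.0047 to 0.34. No paired analysis was possible because the labels give no replicate numbers that the groups share. The cause of these changes was not tested. Where spots or mice were left out, fewer values also entered the fit.

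List counts moved more. They are counts of genes, and the shares over all probes, lower then higher, moved as well. These shares were 6.74% and 9.7% in the report. Under the block on slide row they were 2.06% and 6.17%, or 2.39% and 5.48% with marked spots kept. They were 9.67% and 6.43% with quantile normalization, 7.44% and 5.32% with normexp, and 11.2% and 7.1% with the authors' values. Leaving out 1 mouse gave 4.55 to 6.99% lower and 7.93 to 9.44% higher. Under the block on slide row the other receptors went from 6 lower and 0 higher to 0 and 2, also with marked spots kept, and leaving out 1 mouse gave 3 to 5 lower, with 3 without WT mouse 2, and 0 to 1 higher. Coactivators (0 and 0) had 1 lower with the authors' values, with trend and robust moderation and with marked spots plus the muscle covariate, 2 with marked spots and with the methods' test, and 0 to 1 in each direction on leaving out 1 mouse. Ligand supply (0 and 0) had 1 lower with normexp, marked spots and trend and robust moderation, and 1 higher under the block on slide row in both forms. PPARα and PPARδ targets (3 and 3) had 1 lower with quantile normalization and the methods' test, 5 with marked spots, and 0 lower and 1 higher under the block on slide row in both forms, with 0 to 3 lower and 1 to 3 higher on leaving out 1 mouse. PPARγ targets (1 and 1) had 0 lower with normexp and the block, 3 with marked spots and with these plus the muscle covariate, and 2 with these plus quantile normalization. They had 3 higher with quantile normalization, 2 with the authors' values, and 0 with marked spots, the block in both forms, and marked spots plus the muscle covariate, with 1 to 2 lower and 1 higher on leaving out 1 mouse. ERR targets (2 and 0) had 1 lower with quantile normalization and the methods' test, 4 with trend and robust moderation, 8 with marked spots, 5 with these plus the muscle covariate and 0 under the block in both forms. They had 1 higher with quantile normalization in both forms, normexp, the authors' values and the block in both forms, with 0 to 5 lower and 0 to 1 higher on leaving out 1 mouse. Thyroid hormone targets (1 and 1) had 2 lower with quantile normalization, scaling to the median, normexp, the authors' values, a filter of 6 arrays, trend and robust moderation and SAM, 6 with marked spots and with these plus the muscle covariate, 4 with these plus quantile normalization and 0 with these under the block. They had 0 higher with quantile normalization, normexp, the authors' values, marked spots, SAM, and marked spots plus the muscle covariate, with 1 to 4 lower and 0 to 4 higher on leaving out 1 mouse. Over all probes, the shares lower and higher were 8.07% and 9.3% with marked spots, 8.14% and 9.66% with trend and robust moderation, and 7.59% and 7.66% with the methods' test. They were 5.19% and 8.42% with SAM, 7.79% and 8.7% with scaling to the median, and 7.77% and 11.2% with a filter of 6 arrays. With marked spots kept they were 6.35% and 8.57% with the muscle covariate and 9.66% and 6.7% with quantile normalization.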
